A study of Homo sapiens with 18 samples.

Results

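A set of genes that carry glucose into the cell, trap it, set the pace of its breakdown and move lactate was followed through epithelial-mesenchymal transition (EMT) in human lung cancer cells. They were SLC2A1, SLC2A3, HK1, HK2, PFKFB3, FBP1, LDHA, LDHB, SLC16A1 and SLC16A3, found by their symbols in the deposited table, and they make up 10 of its 19849 genes. The lines were A549, HCC827 and NCI-H358, all non-small cell lung cancers grown in RPMI1640 with 10% fetal bovine serum and 4 mM glutamine. Each line was measured as untreated parental cells and as mesenchymal derivatives that had been kept in 2 ng/ml TGFβ for 3 weeks, with 3 arrays for each of the 6 groups and 18 in all. The TGFβ was withdrawn the day before lysis, and the methods of the study give a range of weeks that differs between lines. Parental cells were not given TGFβ, so each comparison sets long treatment and the state it leaves against no treatment, and the parts of either cannot be told apart. Each line is 1 established cell line. The study describes the 3 arrays of a group as biological replicates prepared in parallel, so the p values measure the spread within such a preparation and not between repeats of the experiment. The labels number no replicates, and the numbers used here follow the order of the sample records and serve only as names.

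The arrays were alike on the deposited log2 scale, with medians between 6.31 and 6.47. The standard deviation of the log2 differences between arrays of a group was 0.163 to 0.282. The deposited values had been normalized, so like medians do not measure the quality of arrays or RNA. The HCC827 parental replicate 1 array was farthest from its group, at 0.256 against 0.146 to 0.221 for the others, and results that rest on it are given with and without it. All 5 mesenchymal markers examined (CDH2, VIM, FN1, ZEB1 and SNAI1) rose in each line, and of 9 epithelial and lung markers 7 fell in HCC827 and in NCI-H358 and 5 in A549. The lung lineage markers were not shared by all lines. NKX2-1 lay at percentile 12.7 of all genes in its lowest group, parental A549, and SFTPB nowhere above percentile 42.2. Leukocyte and endothelial markers lay no higher than percentile 41.4 in any group. A marker list of 13 proliferation genes moved with the state, with 12 lower in A549, 9 higher in HCC827 and 10 lower and 1 higher in NCI-H358, and its part in the results on glucose genes was not tested.

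Glucose enters cells through facilitative transporters, of which GLUT1 (SLC2A1) and GLUT3 (SLC2A3) serve most dividing cells, and hexokinases phosphorylate it so that it stays inside. The key step of commitment is the phosphorylation of fructose 6-phosphate, which fructose 2,6-bisphosphate made by PFKFB3 accelerates, and which fructose-1,6-bisphosphatase (FBP1) runs in the opposite direction. Lactate dehydrogenase, a tetramer of LDHA and LDHB subunits, interconverts pyruvate and lactate, and the monocarboxylate transporters MCT1 (SLC16A1) and MCT4 (SLC16A3) carry lactate across the membrane. Lung adenocarcinomas are known for high glucose uptake and lactate release even where oxygen is present.

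The mesenchymal cells of the 3 lines did not share a pattern over these genes. SLC2A3 rose in all 3 lines, SLC2A1 fell in A549, HK2 and PFKFB3 fell most in HCC827, and in NCI-H358 FBP1 fell while SLC16A1 rose. A change is a difference of group means on the log2 scale, mesenchymal minus parental, and a gene passed the test with a Benjamini-Hochberg adjusted p below 0.05 over all 19849 genes in limma. In A549 3 of the 10 genes rose and 4 fell, where 16.6% of all genes rose and 26.8% fell. In HCC827 2 rose and 4 fell, against 20.8% and 25.0% of all genes. In NCI-H358 4 rose and 3 fell, against 21.5% and 19.8%. With 10 genes chosen by name, nothing particular to the list is read from these counts. At the stricter thresholds that the study used (a more than 5-fold change with an adjusted p below 1e-05), 2 of the 10 passed in NCI-H358, FBP1 and SLC16A1, where 2.17% of all genes did. In A549 (1.90% of all genes) and HCC827 (2.95%) 0 passed in limma, and none could at any p, since the largest fold changes there were 2.70 and 4.44. Without the HCC827 parental replicate 1 array 2 rose and 5 fell in HCC827, with SLC2A1 and LDHA gained and FBP1 lost, and LDHA passed in A549 and NCI-H358 too. On such bulk RNA, fewer cells that express a gene and less of its RNA per cell cannot be told apart.

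**Figure D1:**
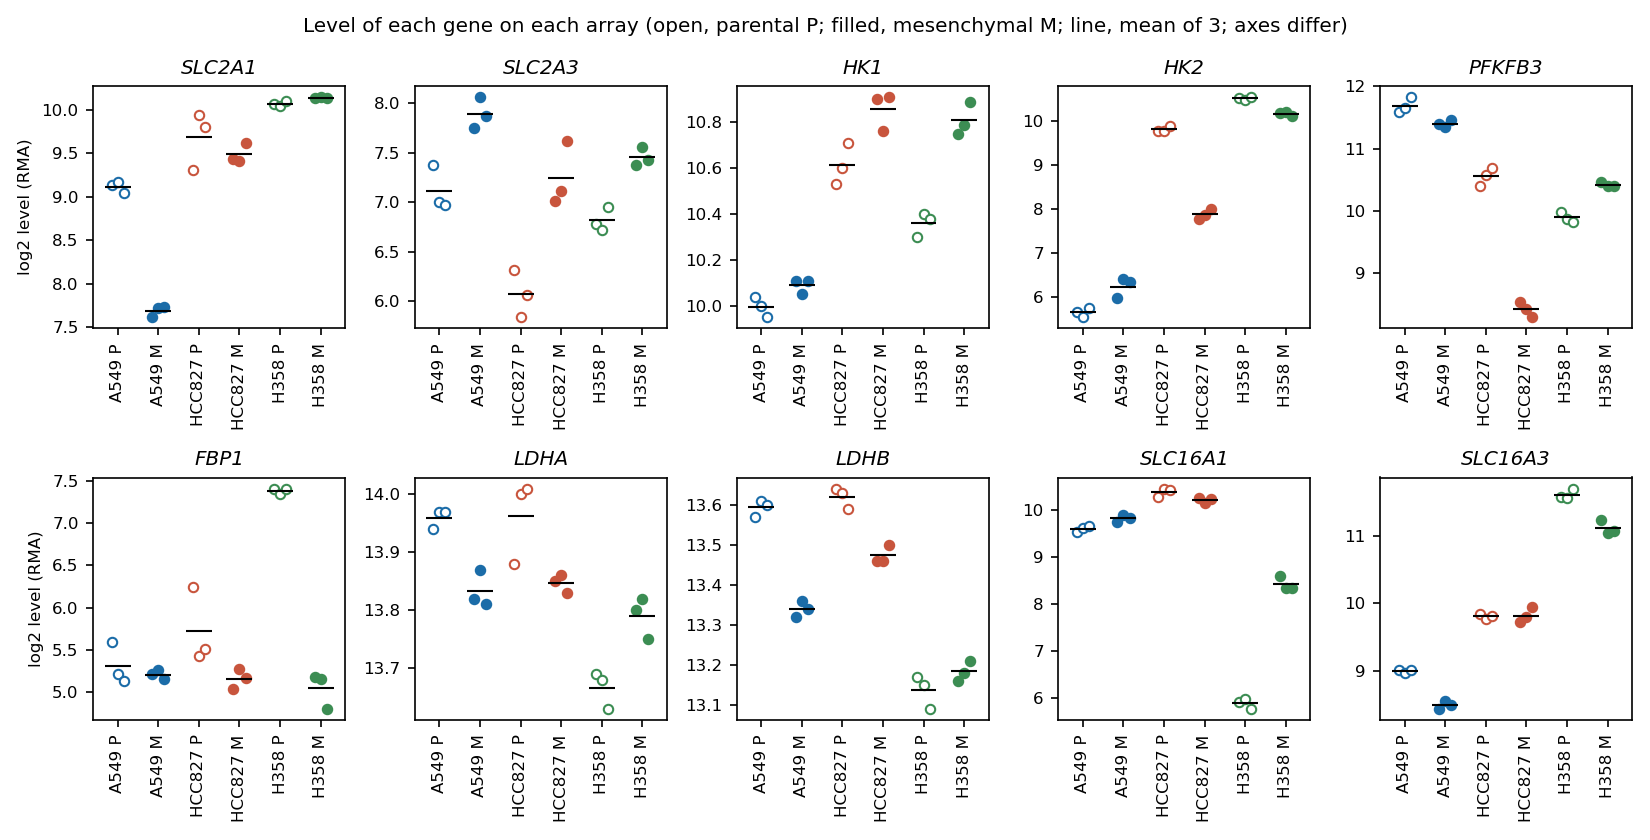
Level of each gene on each of the 18 arrays (vertical axes, log2 RMA signal, a separate scale for each gene), by line and state, with open points for parental (P) arrays, filled points for mesenchymal (M) arrays and a line at the mean of 3. In NCI-H358 (H358) cells FBP1 fell from about 7.38 to 5.04 and SLC16A1 rose from 5.90 to 8.43, while the LDHA axis spans less than the others.

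Promoter sequence was at hand for 8 of the 10 genes, all but SLC2A3 and SLC16A1, as RefSeq windows from 250 bases before to 50 bases after a gene start (build GRCh38.p14). They were searched on both strands for ACGTG, the core of the hypoxia response element, for CAGGTG, an E-box form that SNAI and ZEB factors bind, and for GTCTAGAC, the SMAD palindrome. ACGTG was found in 2 of the 8 windows (HK2 and LDHA), CAGGTG in 1 (SLC16A3, in the window's reverse strand at -30) and GTCTAGAC in 0. Of 27305 windows in the RefSeq table, 21.6%, 20.6% and 0.201% held them, and the counts among the 8 windows are close to these shares. The windows of HK2 (chr2:74833877-74834176, plus strand), LDHA (chr11:18394313-18394612, plus strand) and FBP1 (chr9:94639469-94639768, minus strand) are shown because the first pair holds the ACGTG matches and the third belongs to the gene that fell furthest. Capitals mark ACGTG or its reverse complement CACGT, and where both overlap as CACGTG they count as 1 site.
HK2: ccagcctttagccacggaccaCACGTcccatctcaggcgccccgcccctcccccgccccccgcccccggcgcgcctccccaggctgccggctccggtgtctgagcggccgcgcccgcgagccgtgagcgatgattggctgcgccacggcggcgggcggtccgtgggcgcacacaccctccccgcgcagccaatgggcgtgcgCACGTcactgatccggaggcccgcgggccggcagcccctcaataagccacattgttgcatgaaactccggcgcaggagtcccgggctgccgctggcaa
LDHA: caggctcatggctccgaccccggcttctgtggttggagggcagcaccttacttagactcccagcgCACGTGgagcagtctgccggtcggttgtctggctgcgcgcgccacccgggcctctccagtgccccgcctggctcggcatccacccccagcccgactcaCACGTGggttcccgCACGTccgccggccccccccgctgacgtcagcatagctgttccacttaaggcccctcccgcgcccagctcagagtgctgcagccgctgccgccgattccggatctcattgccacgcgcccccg
FBP1: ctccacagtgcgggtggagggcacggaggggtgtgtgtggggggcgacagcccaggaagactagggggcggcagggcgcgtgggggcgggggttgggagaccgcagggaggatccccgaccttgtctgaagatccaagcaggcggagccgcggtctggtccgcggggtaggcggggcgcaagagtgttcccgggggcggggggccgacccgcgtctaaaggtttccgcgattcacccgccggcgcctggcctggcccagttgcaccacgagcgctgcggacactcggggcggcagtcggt
The sites began at -229 and -48 from the start of HK2 and at -185, -87 and -73 from that of LDHA, and the FBP1 window had none of the 3 motifs. The 2 genes with ACGTG differed in their values: HK2 passed the test in every line, in both directions, and LDHA in none. The LDHA values lay close to the threshold (limma adjusted p = 0.0688 to 0.0944) and passed in some other fits. A match is only a run of letters, and binding was not measured on these arrays.

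SLC2A1 (Entrez gene 6513) encodes GLUT1, the main basal glucose transporter. In A549 its log2 level was 9.14, 9.17 and 9.04 on the parental arrays and 7.61, 7.72 and 7.73 on the mesenchymal arrays. Every mesenchymal array was thus far below every parental array, and the change was -1.44 (standard error 0.11, 95% interval -1.68 to -1.19, limma adjusted p = 1.78e-08), a 2.70-fold fall. In HCC827 the parental arrays were at 9.31, 9.94 and 9.80 and the mesenchymal arrays at 9.44, 9.41 and 9.62. These ranges overlapped and the change of -0.19 did not pass (limma adjusted p = 0.193), but the lowest parental value is that of replicate 1, and without that array the change was -0.38 (limma adjusted p = 5.26e-04). In NCI-H358 all 6 arrays lay between 10.05 and 10.15, with a change of 0.07 (interval -0.17 to 0.31, limma adjusted p = 0.703). The change in A549 was thereby lower than in both other lines, with differences of 1.24 for HCC827 minus A549 (limma adjusted p = 7.62e-06) and 1.50 for NCI-H358 minus A549 (limma adjusted p = 9.23e-07). The order of the group means ran from mesenchymal NCI-H358 (10.14) down to mesenchymal A549 (7.68), and of the neighbours in it only parental and mesenchymal HCC827 overlapped.

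SLC2A3 (Entrez gene 6515), the gene of the high-affinity transporter GLUT3, was the only 1 of the 10 that rose in all 3 lines, as 4.31% of all genes did. In A549 it stood at 7.38, 7.00 and 6.97 on parental and 7.75, 8.06 and 7.87 on mesenchymal arrays. In HCC827 it stood at 6.32, 5.84 and 6.07 on parental and 7.01, 7.11 and 7.62 on mesenchymal arrays. In NCI-H358 it stood at 6.78, 6.72 and 6.95 on parental and 7.37, 7.56 and 7.43 on mesenchymal arrays. In each line every mesenchymal array was above every parental array of that line. The change was 0.78 in A549 (standard error 0.16, limma adjusted p = 5.56e-04), 1.17 in HCC827 (limma adjusted p = 6.67e-06) and 0.64 in NCI-H358 (limma adjusted p = 0.00287), or 1.71-fold, 2.25-fold and 1.56-fold. No difference between lines passed in this fit. The largest was -0.53 for NCI-H358 minus HCC827 (standard error 0.22, limma adjusted p = 0.0687), and this difference lay close to the threshold. It passed with an intensity trend (limma adjusted p = 0.0471), with arrays centred on their median (-0.56, limma adjusted p = 0.0437), and at -0.65 without HCC827 parental replicate 1 (limma adjusted p = 0.0293) or HCC827 mesenchymal replicate 1 (limma adjusted p = 0.031). The parental lines differed more, from 6.08 in HCC827 to 7.11 in A549, than the mesenchymal lines did, from 7.25 to 7.89. The probe set bears the suffix x_at, a class whose probes can match near-identical sequences, and SLC2A14, a close copy of SLC2A3, has no row in the table. The SLC2A3 values are therefore uncertain between these genes.

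Of 12 other glucose and hexose transporter genes in the table, 3 rose and 2 fell in A549, 6 rose and 6 did not pass in HCC827, and 1 rose and 11 did not pass in NCI-H358. The medians of the list were 0.01, 0.22 and -0.02 beside -0.02, 0.01 and 0.02 for all genes. In these lines 16.6%, 20.8% and 21.5% of all genes rose, and 26.8%, 25.0% and 19.8% fell. SLC2A12, which encodes GLUT12, rose in every line, by 2.58 in A549 (5.44 to 8.02), 3.12 in HCC827 (6.59 to 9.71) and 1.64 in NCI-H358 (reaching 9.64). SLC2A12 and SLC2A3 thus both rose in all 3 lines. SLC2A11 had the lowest mean change of the list, with -0.49 in A549 (limma adjusted p = 3.57e-04), -0.10 in HCC827 and -0.05 in NCI-H358.

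HK1 (Entrez gene 3098) encodes the hexokinase found in most tissues. It was high and even, between 9.95 and 10.91 over all arrays. It rose by 0.24 in HCC827 (10.61 ± 0.09 to 10.86 ± 0.08, SD, n = 3, limma adjusted p = 0.00591) and by 0.45 in NCI-H358 (10.36 ± 0.06 to 10.81 ± 0.07, SD, n = 3, limma adjusted p = 2.45e-05). In A549 the change was 0.09 (limma adjusted p = 0.297). The change in NCI-H358 exceeded that in A549 by 0.36 (limma adjusted p = 0.00477). Against HCC827 the difference was 0.21 (limma adjusted p = 0.0930), which passed with an intensity trend (limma adjusted p = 0.0387) and, at 0.25, without HCC827 parental replicate 1 (limma adjusted p = 0.0409). The rise in HCC827 did not pass when that line was fitted alone (limma adjusted p = 0.0569).

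HK2 (Entrez gene 3099), the hexokinase that is induced in many tumours, behaved differently in each line. In A549 it was at 5.68, 5.55 and 5.76 on parental and 5.98, 6.41 and 6.35 on mesenchymal arrays. In HCC827 it was at 9.76, 9.77 and 9.89 on parental and 7.77, 7.86 and 8.01 on mesenchymal arrays. In NCI-H358 it was at 10.52, 10.48 and 10.54 on parental and 10.17, 10.21 and 10.11 on mesenchymal arrays. It was thus raised in the line where it was lowest and lowered in the others, with no overlap of arrays in any line. The change was 0.58 in A549 (standard error 0.10, limma adjusted p = 9.41e-05), -1.93 in HCC827 (limma adjusted p = 3.00e-11, a 3.80-fold fall) and -0.35 in NCI-H358 (limma adjusted p = 0.00707). In parental A549 HK2 (5.66) lay close to the T cell marker CD3E (5.49 there). Other leukocyte and endothelial markers there ran from 2.96 (PTPRC) to 5.76 (CD14). The rise in A549 may thus be understated, which was not tested. All 3 differences between lines passed. They were -2.51 for HCC827 minus A549 (limma adjusted p = 1.91e-10), -0.93 for NCI-H358 minus A549 (limma adjusted p = 2.91e-05) and 1.58 for NCI-H358 minus HCC827 (limma adjusted p = 8.92e-08). Between lines HK2 spanned 4.85 on the log2 scale in parental cells, from percentile 40.2 of all genes in A549 to percentile 93.0 in NCI-H358. No neighbours in the order of the 6 group means overlapped.

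Of the other 4 hexokinase genes listed, HKDC1, a further hexokinase family member, changed by most. It fell by 3.10 in A549 (9.81 to 6.70, limma adjusted p = 1.37e-12) and fell by 2.66 in HCC827 (9.78 to 7.12, limma adjusted p = 8.23e-12). In NCI-H358, where it was low, it rose by 0.45 (4.90 to 5.36, limma adjusted p = 0.00526). HKDC1 and HK2 thus fell together in HCC827 and moved in opposite directions in A549 and in NCI-H358.

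**Figure D2:**
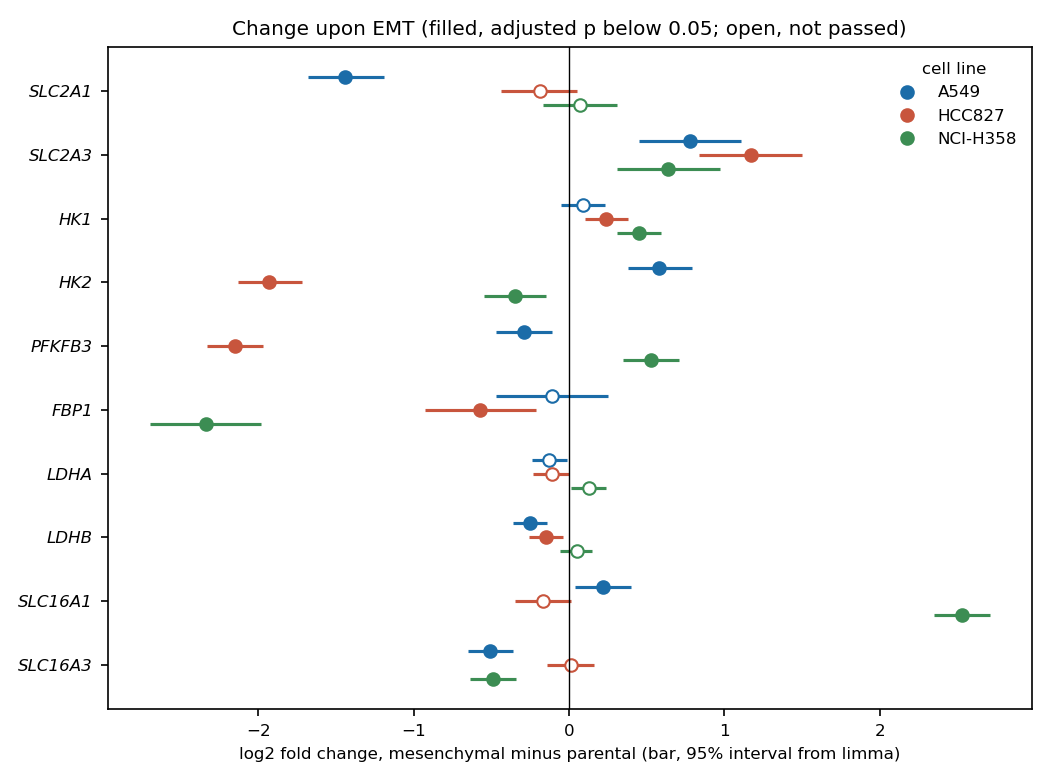
Change of each gene upon EMT in each line (horizontal axis, log2 fold change, mesenchymal minus parental, with bars for the 95% interval from limma), filled where the adjusted p was below 0.05 and open where it was not. SLC2A3 lies to the right of 0 in all 3 lines, and HK2 and PFKFB3 lie on both sides.

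PFKFB3 (Entrez gene 5209) makes fructose 2,6-bisphosphate, the strongest activator of phosphofructokinase. In A549 it was at 11.59, 11.65 and 11.83 on parental and 11.39, 11.34 and 11.46 on mesenchymal arrays. In HCC827 it was at 10.40, 10.58 and 10.69 on parental and 8.52, 8.42 and 8.28 on mesenchymal arrays. In NCI-H358 it was at 9.98, 9.87 and 9.82 on parental and 10.46, 10.39 and 10.40 on mesenchymal arrays. The mesenchymal arrays were below all parental arrays in A549 and HCC827 and above them in NCI-H358. The change was -2.15 in HCC827 (standard error 0.09, limma adjusted p = 1.64e-12), a 4.44-fold fall, -0.29 in A549 (limma adjusted p = 0.0105) and 0.53 in NCI-H358 (limma adjusted p = 6.69e-05). The A549 change was -0.22 and did not pass without parental replicate 3 (limma adjusted p = 0.0624) or with each array centred on its median (limma adjusted p = 0.0743). The differences between lines were -1.86 for HCC827 minus A549 (limma adjusted p = 1.98e-09), 0.82 for NCI-H358 minus A549 (limma adjusted p = 3.05e-05) and 2.68 for NCI-H358 minus HCC827 (limma adjusted p = 3.69e-11). PFKFB3 and HK2 were the 2 genes of the 10 that passed in opposite directions in different lines, as 15.7% of all genes did. They fell together in HCC827, by far more than any other member there, and went opposite ways in A549 and in NCI-H358.

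Of the other 4 genes of fructose 2,6-bisphosphate metabolism, 2 rose and 1 fell in A549, 2 fell in HCC827, and 2 rose and 1 fell in NCI-H358. Shares of all genes that rose were 16.6%, 20.8% and 21.5% in these lines, and shares that fell were 26.8%, 25.0% and 19.8%. PFKFB4, an isoform of PFKFB3, rose by 1.37 in A549 (limma adjusted p = 1.79e-09), changed by -0.52 in HCC827 (limma adjusted p = 1.26e-04) and rose by 0.82 in NCI-H358 (limma adjusted p = 1.04e-06). PFKFB2, the isoform known from heart muscle, fell in all 3 lines, with changes of -0.26, -0.80 and -0.57 (limma adjusted p = 0.0439, 3.37e-06 and 1.60e-04). In HCC827 PFKFB3, PFKFB4 and PFKFB2 therefore all fell.

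FBP1 (Entrez gene 2203) encodes the phosphatase that takes the phosphate off fructose 1,6-bisphosphate, a step of gluconeogenesis. In NCI-H358 it was at 7.41, 7.34 and 7.40 on parental arrays and at 5.18, 5.15 and 4.80 on mesenchymal arrays. That was the largest fall among the 10 genes in any line, at -2.34 (standard error 0.17, interval -2.70 to -1.98, limma adjusted p = 4.89e-09), or 5.05-fold as measured. The mesenchymal level of 5.04 was no higher than those of CD3E (5.49 to 5.61 in this line) and VWF (5.16 to 5.24), a T cell and an endothelial marker. The leukocyte marker PTPRC lay lower (3.16 to 3.18). The fold may be a lower bound, which was not tested, and it lies close to the threshold of 5. In HCC827 it was at 6.24, 5.43 and 5.51 on parental and 5.04, 5.27 and 5.16 on mesenchymal arrays. The arrays did not overlap and the change of -0.57 passed (limma adjusted p = 0.0105), but without parental replicate 1, the array at 6.24, it was -0.31 and did not (limma adjusted p = 0.0613). In A549 the parental arrays were at 5.59, 5.21 and 5.13 and the mesenchymal arrays at 5.21, 5.26 and 5.15. These overlapped, with a change of -0.11 (interval -0.47 to 0.25, limma adjusted p = 0.663). The mesenchymal means of the 3 lines were 5.20, 5.16 and 5.04, between percentiles 30.3 and 32.9 of all genes, and spanned 0.16 against 2.07 for the parental means. Only parental NCI-H358 stood clear of its neighbour in the order of the 6 groups. The differences were -2.23 for NCI-H358 minus A549 (limma adjusted p = 9.47e-07) and for NCI-H358 minus HCC827 -1.77 (limma adjusted p = 1.56e-05). A low level may limit how far a further fall could show in A549 and HCC827, and what part this had in the differences between lines was not tested.

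Among 8 other gluconeogenesis genes, 3 fell in each line, and they were PC, PCK2 and SLC37A4 every time. Of all genes, 26.8%, 25.0% and 19.8% fell in A549, HCC827 and NCI-H358, and 6.14% fell in all 3 lines. PCK2, the mitochondrial enzyme that makes phosphoenolpyruvate, had the lowest mean change, with -1.19, -0.77 and -0.44 in A549, HCC827 and NCI-H358 (limma adjusted p = 6.82e-07, 6.80e-05 and 0.00920). PC, pyruvate carboxylase, changed by -0.86, -0.28 and -0.52, and SLC37A4, the glucose 6-phosphate translocator, by -0.59, -0.70 and -0.72, both named after their values were seen. Unlike FBP1, these genes fell in A549 too. G6PC3, a widely expressed glucose 6-phosphatase, rose in HCC827 (0.22, limma adjusted p = 0.00539) and NCI-H358 (0.41, limma adjusted p = 2.85e-05). The list's medians were -0.19, -0.10 and -0.15, beside -0.02, 0.01 and 0.02 over all genes.

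LDHA (Entrez gene 3939) and LDHB (3945) encode the M and H subunits of lactate dehydrogenase, which are known for favouring lactate and pyruvate production respectively. Their probe sets were among the brightest of the table, at percentiles 99.5 to 99.9, with means of 13.14 to 13.96 where the highest value of the table was 14.62. A549 had LDHA at 13.96 ± 0.02 before and 13.83 ± 0.03 after EMT, HCC827 at 13.96 ± 0.07 and then 13.85 ± 0.01, and NCI-H358 at 13.66 ± 0.03 and then 13.79 ± 0.03 (SD, n = 3 each). Its change passed in no line (-0.13, -0.11 and 0.13, limma adjusted p = 0.0688, 0.0944 and 0.0714), although the arrays of the 2 states did not overlap in any line. All 3 passed with an intensity trend (limma adjusted p = 0.00274, 0.00514 and 0.00268). They also passed without HCC827 parental replicate 1 (limma adjusted p = 0.0402, 0.0262 and 0.0412). Its change in NCI-H358 differed from that in A549 by 0.25 (limma adjusted p = 0.0122) and from that in HCC827 by 0.24 (limma adjusted p = 0.0179), the latter not passing with arrays centred on their median (0.21, limma adjusted p = 0.0605). LDHB fell slightly in A549, from 13.59 ± 0.02 to 13.34 ± 0.02 (SD, n = 3, change -0.25, limma adjusted p = 6.13e-04), and in HCC827, from 13.62 ± 0.02 to 13.47 ± 0.02 (SD, n = 3, change -0.15, limma adjusted p = 0.0219). The HCC827 change did not pass after each array was centred on its median (-0.08, limma adjusted p = 0.206) or after the table was quantile normalized (-0.04, limma adjusted p = 0.541). The LDHB probe set bears the suffix x_at too, so its values may include near-identical sequences. In NCI-H358 it changed by 0.05 (interval -0.06 to 0.15, limma adjusted p = 0.522). These changes of LDHA and LDHB were at most 1.19-fold, and whether the brightness of the probe sets compressed them was not tested.

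SLC16A1 (Entrez gene 6566) encodes MCT1, which carries lactate in both directions. In NCI-H358 it was at 5.93, 5.99 and 5.78 on parental arrays and at 8.60, 8.34 and 8.34 on mesenchymal arrays. That was the largest rise among the 10 genes in any line, at 2.53 (standard error 0.08, interval 2.35 to 2.71, limma adjusted p = 2.56e-13), or 5.78-fold, and took the gene from percentile 42.8 to percentile 74.6 of all genes. The parental level was close to those of CA9 (5.66) and SFTPB (5.57) in the same cells, which passed in no line. PTPRC lay lower there (3.16). The fold may be a lower bound, which was not tested. In A549 it was at 9.53, 9.62 and 9.67 on parental and 9.74, 9.90 and 9.83 on mesenchymal arrays. The arrays did not overlap, yet the change of 0.22 only just passed (limma adjusted p = 0.0478) and did not in 11 of 18 fits that left out 1 array (adjusted p of up to 0.161). In HCC827 it was at 10.27, 10.46 and 10.42 on parental and 10.25, 10.16 and 10.24 on mesenchymal arrays, and the change of -0.17 did not pass (limma adjusted p = 0.125). Even after its rise, the NCI-H358 level stayed below that of parental A549 (9.61). The differences between lines were 2.31 for NCI-H358 minus A549 (limma adjusted p = 9.57e-11), 2.70 for NCI-H358 minus HCC827 (limma adjusted p = 2.96e-11) and -0.38 for HCC827 minus A549 (limma adjusted p = 0.0155).

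SLC16A3 (Entrez gene 9123) encodes MCT4, the exporter of lactate from glycolytic cells. In A549 it was at 9.02, 8.97 and 9.02 on parental and 8.44, 8.55 and 8.50 on mesenchymal arrays. In NCI-H358 it was at 11.57, 11.56 and 11.70 on parental and 11.23, 11.04 and 11.07 on mesenchymal arrays. It fell by a like amount in these lines, with -0.51 in A549 (standard error 0.07, limma adjusted p = 1.49e-05) and -0.49 in NCI-H358 (limma adjusted p = 1.79e-05), a difference of 0.01 (interval -0.20 to 0.22). In HCC827 all 6 arrays lay between 9.72 and 9.94, and the change was 0.01 (interval -0.14 to 0.16, limma adjusted p = 0.952). The change in HCC827 was above that in A549 by 0.51 (limma adjusted p = 4.43e-04), and that in NCI-H358 differed from HCC827 by -0.50 (limma adjusted p = 6.36e-04). In NCI-H358 the genes of the 2 lactate transporters thus moved in opposite directions. They did so in A549 too, where the rise of SLC16A1 was small and only just passed.

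Of 12 other genes of lactate and pyruvate metabolism and transport, 4 of them further lactate dehydrogenase genes, 2 rose and 1 fell in A549, 1 rose and 4 fell in HCC827, and 1 rose and 3 fell in NCI-H358. Shares of all genes that rose were 16.6%, 20.8% and 21.5% in these lines, and shares that fell were 26.8%, 25.0% and 19.8%. SLC16A7, which encodes the high-affinity transporter MCT2, fell by 3.00 in HCC827 (9.03 to 6.03, limma adjusted p = 1.36e-11) and changed by -0.99 in NCI-H358 (8.41 to 7.42, limma adjusted p = 1.72e-05). In A549 it was low in both states, at 3.59 and 3.58. MPC1, a subunit of the carrier that takes pyruvate into mitochondria, rose in all 3 lines, by 0.58, 0.92 and 0.82 (limma adjusted p = 1.45e-06, 3.31e-09 and 1.77e-08). Its partner subunit MPC2 changed by -0.98, -0.97 and 0.07 (limma adjusted p = 8.14e-07, 6.66e-07 and 0.657), and was named after its values were seen. BSG and EMB, the membrane proteins that accompany monocarboxylate transporters to the surface, were also picked after their values were seen. EMB rose by 0.92 in A549, whereas HCC827 showed -0.35 and NCI-H358 -1.66 (limma adjusted p = 4.01e-08, 0.00125 and 1.68e-11), and BSG changed by -0.11, -0.55 and -0.14, of which only the HCC827 value passed (limma adjusted p = 1.57e-05).

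The change upon EMT of each of the 10 genes was compared between lines. The test of the difference passed for 5 genes between HCC827 and A549, for 8 between NCI-H358 and A549 and for 7 between NCI-H358 and HCC827, where 42.2%, 42.8% and 37.9% of all genes passed. Without HCC827 parental replicate 1 the last count was 10. Nothing particular to the list is read from these counts either. The comparisons share arrays, since each line enters a pair of them. The size of the change, whatever its direction, had a median over the 10 genes of 0.47 in NCI-H358, beside 0.19 over all genes. In A549 these medians were 0.27 and 0.21, and in HCC827 both were 0.22. The median signed change of the 10 genes was -0.12, -0.16 and 0.10 in A549, HCC827 and NCI-H358.

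For 8 of the 10 genes the line accounted for more of the spread than the state did, and for SLC2A3 and FBP1 it accounted for less. The sum of squares over the 18 arrays was divided into parts for line, state, line by state and the arrays of a group. The line took over 50% for 8 of the 10 genes, from 59.3% for LDHA to 96.2% for SLC16A3. Medians over all genes of the table were 47.9% for line and 6.95% for state. SLC2A3 was the gene with the largest part for state, 53.6%, against 34.3% for line. FBP1 was divided most evenly, with 24.8% for line, 36.6% for state and 33.5% for line by state. The arrays of a group took between 0.261% (HK2) and 8.50% (SLC2A3). The smallest two-sided p that exact permutation of 3 against 3 arrays allows is 0.1, so the single-gene tests rest on the spread that limma estimates over all 18 arrays.

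**Figure D3:**
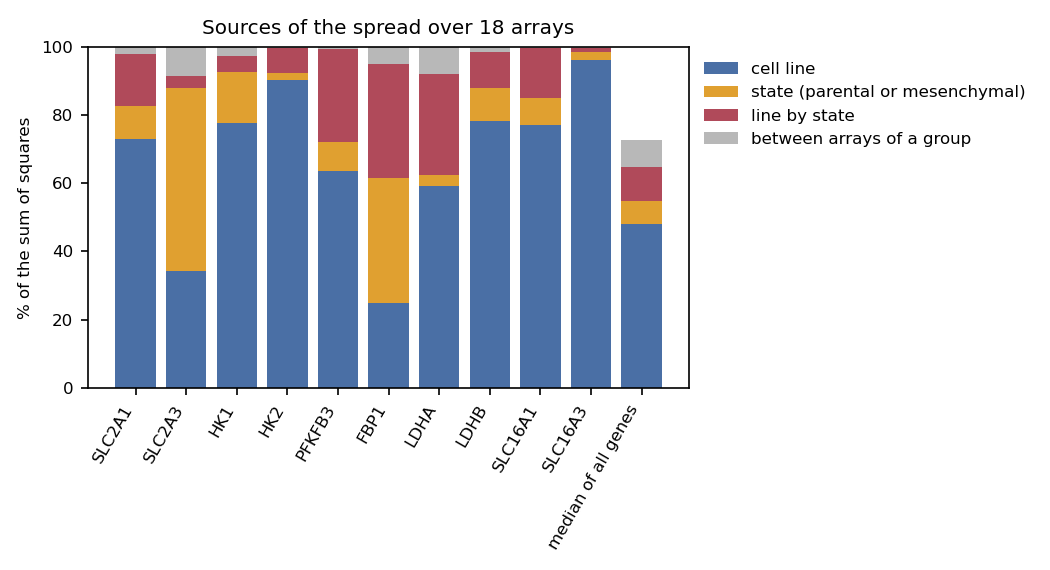
Share of the sum of squares over 18 arrays (vertical axis, percent) that lies between lines, between states, in the line-by-state term and between arrays of a group, for each gene and for the median over all genes, whose parts are separate medians and do not add up to 100%. SLC2A3 has the tallest part for state, 53.6%, and SLC16A3 the tallest for line, 96.2%.

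Genes of glycolysis itself moved in both directions. Of 18 glycolytic enzyme genes outside the 10, 2 rose and 8 fell in A549, 3 rose and 7 fell in HCC827, and 5 rose and 2 fell in NCI-H358. Their medians were -0.18, -0.10 and 0.04, beside -0.02, 0.01 and 0.02 for all genes. In A549, HCC827 and NCI-H358, 16.6%, 20.8% and 21.5% of all genes rose, and 26.8%, 25.0% and 19.8% fell. GPI, the isomerase that follows hexokinase, had the lowest mean change, with -0.93, -1.27 and -0.37 (limma adjusted p = 7.27e-09, 8.22e-11 and 2.88e-04). BPGM, which makes 2,3-bisphosphoglycerate, had the highest, with 0.62, 0.35 and 0.63 (limma adjusted p = 8.81e-06, 0.00180 and 5.76e-06). GPI thus fell and BPGM rose in every line. Both were named for their mean over the 3 lines, a choice that favours genes that move the same way throughout. ENO2 of the same list, not chosen by its mean, moved in both directions, with -0.66, 0.32 and -0.33 (limma adjusted p = 2.48e-06, 0.00258 and 0.00229).

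Among 10 transcriptional regulators of glucose use, 2 rose and 1 fell in A549, 1 rose and 5 fell in HCC827, and 5 rose and 3 fell in NCI-H358. MLXIP (MondoA, a sensor of glucose 6-phosphate) rose in all 3 lines, by 1.69, 0.93 and 1.09 (limma adjusted p = 2.79e-12, 5.01e-09 and 8.55e-10). EPAS1, which encodes the hypoxia-inducible factor HIF-2α, rose by 1.09 in A549 (12.21 to 13.30), while HCC827 showed -1.60 (11.49 to 9.90) and NCI-H358 -4.46 (11.45 to 6.99, limma adjusted p = 5.41e-16). Of 14 hypoxia target genes outside glycolysis, 3 rose and 5 fell in A549, 2 rose and 9 fell in HCC827, and 9 rose and 3 fell in NCI-H358. Over all genes, 16.6% rose and 26.8% fell in A549, where HCC827 had 20.8% and 25.0% and NCI-H358 21.5% and 19.8%. The medians of the list were -0.00, -0.36 and 0.63, beside -0.02, 0.01 and 0.02 for all genes. ADM (adrenomedullin) changed by -4.53, -1.47 and 1.27, EGLN3 (a prolyl hydroxylase of the hypoxia-inducible factors) by -1.92, -4.00 and -0.37, VEGFA by 2.80, 0.53 and -0.88, and each passed in all 3 lines. CA12, a carbonic anhydrase, fell by 2.98 in A549 (12.23 to 9.25, limma adjusted p = 1.95e-14) and was low in the other lines.

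**Figure D4:**
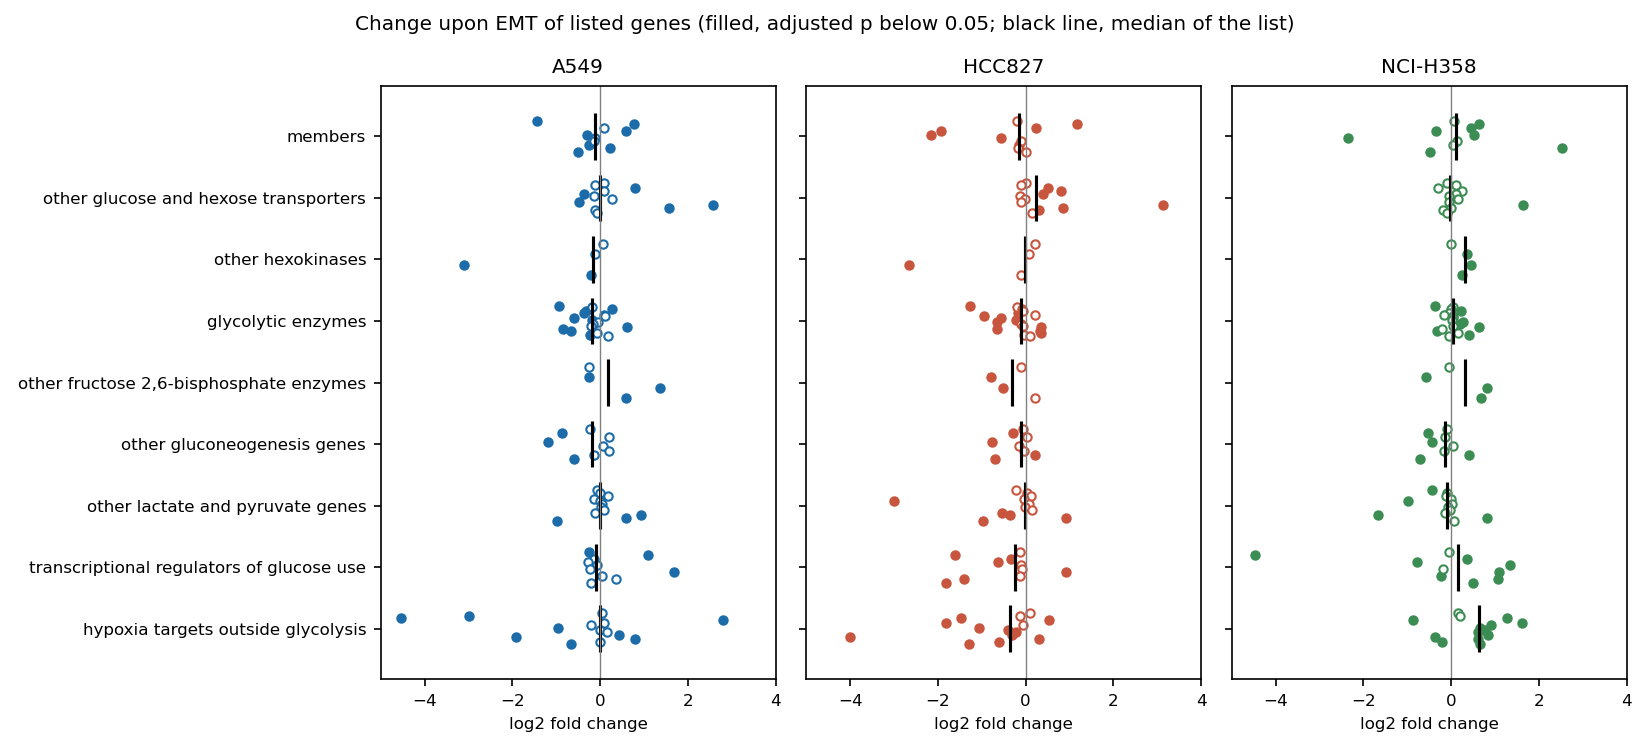
Change upon EMT of the 10 genes (members) and of 8 lists of other genes (horizontal axis, log2 fold change, mesenchymal minus parental), a panel for each line, with 1 point per gene, filled where the adjusted p was below 0.05, and a black line at the median of the list. The hypoxia targets lie mostly left of 0 in HCC827, with a median of -0.36, and mostly right of it in NCI-H358, with a median of 0.63.

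For the 2 genes past the stricter thresholds, the genes most alike in pattern were found by Pearson's r over the 18 arrays, among genes whose 6 group means spanned at least 2 on the log2 scale. Since arrays of a group and of a line go together, r is a description only. Closest to FBP1 were TMPRSS4 (r = 0.982), a membrane serine protease, FXYD3 (0.978), a regulator of the sodium pump, and CAPN8 (0.977), a calpain. TMPRSS4 went from 10.05 to 4.96 in NCI-H358 and from 6.37 to 5.11 in HCC827, and stood at 5.09 and 5.20 in A549. The same shape, high in parental NCI-H358 and low in all mesenchymal groups, was seen in FXYD3, at 11.10 and 6.36 in NCI-H358. Closest to SLC16A1 were PAPSS2 (0.986), an enzyme that makes the sulfate donor PAPS, PJA1 (0.982), a ubiquitin ligase, and MYC (0.979), a transcription factor that drives growth genes. MYC was lowest in parental NCI-H358 at 9.45 and rose there by 1.34 to 10.79 (limma adjusted p = 2.92e-11). In A549 and HCC827 MYC changed by -0.07 and -0.10 (limma adjusted p = 0.439 and 0.238).

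**Figure D5:**
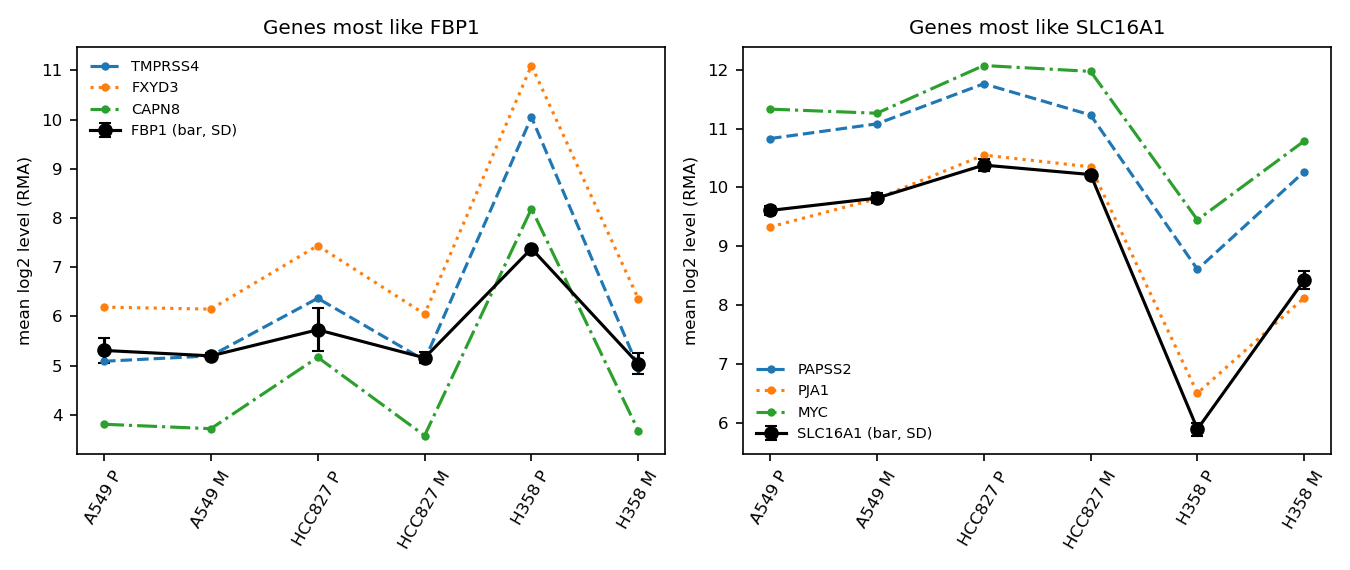
Mean log2 level (vertical axis, RMA) in the 6 groups of FBP1 and SLC16A1 (black, bars for the SD of 3 arrays) and of the 3 genes with the highest Pearson's r with each, where the lines between groups only guide the eye. FBP1, TMPRSS4, FXYD3 and CAPN8 peak in parental NCI-H358 (H358), where SLC16A1, PAPSS2, PJA1 and MYC are lowest.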

How the data were processed

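Per the labels and the study's methods, total RNA was labelled and hybridized to Affymetrix U133 Plus 2.0 arrays. The authors deposited log2 values made by RMA (background correction, quantile normalization and a summary per probe set), with 1 probe set for each of 19849 genes. RMA's version and the rule that chose the probe set were not given in the sources used here. All 18 columns bore a sample title, which gave the group.

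From these values, limma 3.58.1 in R 4.3.3 fitted all 18 arrays as 6 groups with no covariate (lmFit, eBayes), with Benjamini-Hochberg adjustment over all genes. The steps were tested on simulated data. Genes outside the 10 were named where they passed the study's thresholds in a line, had the highest or lowest mean change of their list, or were most alike to FBP1 or SLC16A1. PC, SLC37A4, MPC2, BSG, EMB and ENO2 were named outside this rule. So were the cell type markers and CA9, given as markers or to compare levels. The members, lists and motifs were chosen with earlier results of these data known. Of the gene IDs, 19326 were found in RefSeq. The number of arrays limits the precision. Alternatives were other fits, filters, scalings and thresholds, the methods' t-test (their default for other data, limma being named for the arrays), and each array left out in turn. Proteins were not compared here. A gene that this rule names is not reported here.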

Additional observations from a re-analysis of the deposited data

Results flagged for a closer look

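The change upon EMT differed between lines for the genes that follow, by limma's test of the difference with an adjusted p below 0.05 over all genes. Each value is the log2 change in the first line minus that in the second, and the 3 comparisons share arrays. For HCC827 minus A549 it was 1.24 for SLC2A1, -2.51 for HK2, -1.86 for PFKFB3, -0.38 for SLC16A1 and 0.51 for SLC16A3. For NCI-H358 minus A549 it was 1.50 for SLC2A1, 0.36 for HK1, -0.93 for HK2, 0.82 for PFKFB3, -2.23 for FBP1, 0.25 for LDHA, 0.30 for LDHB and 2.31 for SLC16A1. For NCI-H358 minus HCC827 it was 1.58 for HK2, 2.68 for PFKFB3, -1.77 for FBP1, 0.24 for LDHA, 0.20 for LDHB, 2.70 for SLC16A1 and -0.50 for SLC16A3. With 1 array left out in turn, the LDHB value of NCI-H358 minus HCC827 had an adjusted p above 0.05 in 9 of 18 fits, the highest being 0.0854. It was 0.17 with arrays centred on their median (limma adjusted p = 0.0825) and 0.05 after quantile normalization (limma adjusted p = 0.662), and the LDHA value of the same pair was 0.21 after centring (limma adjusted p = 0.0605).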

How the results depend on the processing

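No called value changed direction under the alternatives run. Fitted separately, HCC827 had 3 genes passing in place of 6, without HK1 (limma adjusted p = 0.0569), FBP1 (0.0549) and LDHB (0.136). With a fold change above 2 required, 1, 3 and 2 genes passed in A549, HCC827 and NCI-H358, and at the study's thresholds 0, 0 and 2. The methods' t-test, their general test and not that of the arrays, passed 6, 4 and 9 genes after Benjamini-Hochberg. In A549 it lost PFKFB3 (t-test adjusted p = 0.0584) and SLC16A1 (0.066) and gained LDHA (0.0107). By the same test HCC827 lost HK1 (adjusted p = 0.0752) and FBP1 (0.192), and NCI-H358 gained SLC2A1 (0.0422) and LDHA (0.0333). With 1 array left out, 6 to 8 genes passed in A549, 5 to 7 in HCC827 and 7 to 8 in NCI-H358, and 5, 8 and 6 to 10 for the differences HCC827 minus A549, NCI-H358 minus A549 and NCI-H358 minus HCC827. Over single genes, 302 of 360 values kept their side of the threshold and 0 reversed, and with an array left out 1047 of 1080 did. LDHA passed in all 3 lines with an intensity trend (limma adjusted p = 0.00274, 0.00514 and 0.00268). Without HCC827 parental replicate 1 the NCI-H358 minus HCC827 difference of SLC2A1 was 0.45 (limma adjusted p = 0.00195). No paired analysis was possible because the labels give no replicate numbers, those used here being names only. Low signal may limit FBP1, HK2 in A549 and SLC16A1 in NCI-H358, and high signal LDHA and LDHB. The 1 probe set per gene could not be set against others.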
